A study of Mus musculus with 2 samples.

Results

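The aquaporin water channels described here, the 10 genes Aqp1 to Aqp9 and Aqp11, were chosen by name: each probe that was not a control spot and that the scanner files assign to one of them was used. They were represented by 15 probes of 41170 on the array, and all 10 were among the 17247 genes that gave a ratio or a bound. Aquaporins are membrane proteins that form pores for water, and the aquaglyceroporins among them also pass glycerol and other small uncharged solutes. Each monomer holds its own pore, and water moves through it along osmotic gradients that ion channels and pumps set up. In the lung, aquaporins are known from capillary endothelium, from the basolateral membrane of airway epithelium and from the apical membrane of alveolar type I cells, and the fetal airspace is filled with liquid that is cleared around birth.

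Airway epithelium inside the lung lobes was cut by laser from stained frozen sections of wild-type male CD-1 mouse fetuses. The E18.5 material came from 1 lung and was labelled with Cy5 (red), the E14.5 material came from 1 lung and was labelled with Cy3 (green), and both were hybridised together on 1 two-colour array. With 1 sample per age there was no replicate check of any difference and no p-value, and age and dye cannot be told apart. A probe was well above background by the scanner software's flag, and differences of at least 2-fold were counted by size alone. In these bulk samples, fewer cells of a type and less RNA per cell cannot be told apart.

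At E18.5 the material held strong signal of differentiated airway cells: all 10 club and secretory markers and all 10 multiciliated markers were at least 2-fold higher than at E14.5. The same held for 17.3% of all genes. Of the array's probes, 78.7% were well above background at E18.5 and 75.2% at E14.5. Markers of other cells were measured in the same material and are given beside the aquaporins that those cells are known to make. Repeated spots of a probe differed in log2 ratio with a median SD of 0.05 (245 probes), and different probes of a gene with one of 0.33 (6896 genes). Each aquaporin probe was spotted once, none was saturated (0 of 15) and none was an outlier (0 of 15).

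The aquaporins split into a group of 3 with large differences, Aqp5, Aqp4 and Aqp1, another just past 2-fold, Aqp11, and 6 that did not reach 2-fold, where 72.6% of all genes lay within 2-fold. Thus 4 of 10 were higher at E18.5 by at least 2-fold, where 17.3% of all genes were, and 0 of 10 were at least 2-fold lower, where 10.1% of all genes were. Of the 10, 3 were at least 8-fold higher, against 3.17% of all genes. The median log2 ratio of E18.5 over E14.5 was 0.48 over the aquaporins and 0.06 over all genes. That median lies midway between Aqp2 and Aqp9, whose value is a bound from a dim probe, and it was 0.97 with the scanner software's ratios. Among the 6 water-selective members, 3 were at least 2-fold higher, and among the 3 aquaglyceroporins 0 were. Of the latter, Aqp7 and Aqp9 were near background at both ages, as were the water-selective Aqp6 and Aqp8. The main values pull the ratios of such dim probes towards 0, and Aqp9 was at 1.17 by the scanner software.

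**Figure D1:**
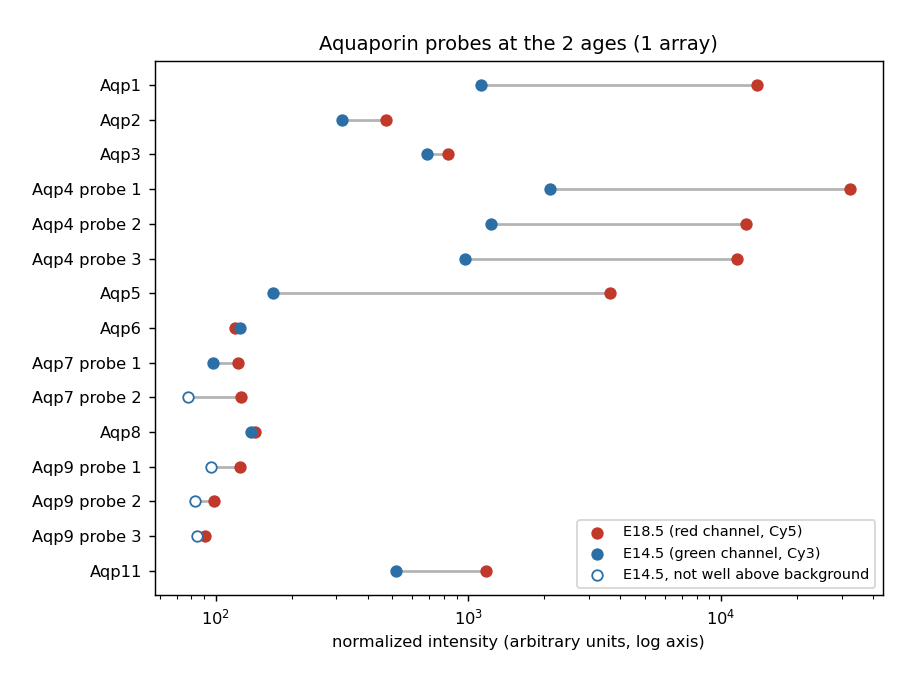
Normalized intensity of each aquaporin probe at E18.5 (red) and E14.5 (blue) on a log axis, 1 array, with open symbols for values not well above background. The Aqp5, Aqp4 and Aqp1 probes have wide gaps between the ages, and the Aqp6, Aqp8 and Aqp9 probes lie near the low end at both.

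Aqp5 had the largest ratio of the family. It encodes the apical water channel of alveolar type I cells and of serous gland cells. Its probe had a normalized intensity of 3637 at E18.5 and 168 at E14.5. The log2 ratio was 4.43, a 21.6-fold higher intensity at E18.5, and 99.0% of all genes had a lower ratio. The E14.5 value was low and the size differed between background corrections: the scanner software's log2 ratio was 5.03 ± 0.52 (its error model), a 32.6-fold difference. The probe lies on chromosome 15 from 99422734 to 99422792 on mm8, plus strand, and its sequence is shown because the largest difference rests on this single probe.
Aqp5 probe: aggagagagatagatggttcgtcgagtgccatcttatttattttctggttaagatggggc

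Aqp5 was set beside the markers of alveolar type I cells, which line the airspaces. Of 15 such genes, 7 were higher at E18.5 by at least 2-fold, 1 was lower and 7 lay within 2-fold, with a median log2 ratio of 0.92. By the same measure, 17.3% of all genes were higher and 10.1% lower. The matrix protease inhibitor gene Timp3 had the largest ratio of that list, at 2.32 (4.98-fold), and Igfbp2, a binding protein for insulin-like growth factors, the lowest, at −2.11 (4.31-fold lower). The summed normalized intensity of the 15 was 371649 at E18.5 and 170594 at E14.5. Among their defining members, Hopx was at 2.04, Ager at 1.97 and Pdpn at −0.71, named here after their values were seen. The part of alveolar cells in the Aqp5 difference was not tested.

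Aqp1 encodes the constitutive water channel of endothelium, red blood cells and mesothelium. Its probe had an intensity of 13929.6 at E18.5 and 1127 at E14.5. The log2 ratio was 3.63 (12.4-fold), and 3.53 ± 0.39 by the scanner software. On chromosome 6 from 55278064 to 55278123 on mm8, plus strand, its single probe reads as follows.
Aqp1 probe: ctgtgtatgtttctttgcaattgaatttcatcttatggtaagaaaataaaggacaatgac

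Markers of the cells known to make Aqp1 did not all go one way. In the endothelial list, 9 of 15 were higher at E18.5 by at least 2-fold, 0 were lower and 6 did not reach 2-fold, and the median log2 ratio was 1.47. The vascular growth factor receptor gene Kdr had a log2 ratio of 4.13 (17.5-fold). Vwf, which encodes a clotting glycoprotein, had one of 3.08 (8.48-fold, another probe 2.27). The junction genes Pecam1 and Cdh5, named after their values were seen, were at 0.64 and 0.35. The endothelial list summed to an intensity of 146936 at E18.5 and 30401 at E14.5. Of 14 erythroid genes, 4 were higher by at least 2-fold, 4 lower and 6 did not reach 2-fold, with a median of −0.07. The embryonic globins Hbb-y and Hba-x had log2 ratios of −4.35 and −3.65, the adult globins Hbb-bt and Hba-a2, named after their values were seen, 2.60 and 2.59, and the summed intensity of the list, most of it globin, was 753851 at E18.5 and 169981 at E14.5. Among 8 mesothelial genes, 3 were higher by at least 2-fold and 0 lower, with a median of 0.50 and summed intensities of 143256 at E18.5 and 52684 at E14.5. Most of that sum was Krt19, a keratin that airway epithelium also makes, with 93096 at E18.5 and 45619 at E14.5. Msln and Upk1b, surface proteins of mesothelium, were at 3.13 and 2.79, while Wt1, Upk3b and Lrrn4 stayed at intensities of 138, 112 and 97.2 at E18.5. The part of these cells in the Aqp1 difference was not tested.

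Aqp4, the basolateral water channel of airway epithelium and of astrocyte end feet, was the only aquaporin read by several probes well above background at both ages. The first of its probes had an intensity of 32286 at E18.5 and 2097 at E14.5, a log2 ratio of 3.94 (15.4-fold). The second had 12574 at E18.5 and 1232 at E14.5, a log2 ratio of 3.35 (10.2-fold). The third had 11612 at E18.5 and 967 at E14.5, a log2 ratio of 3.59. All 3 probes were thus more than 8-fold brighter at E18.5, and their ratios had an SD of 0.30, close to the 0.33 typical for different probes of a gene. The scanner software's ratios for them were 3.84 ± 0.41, 3.25 ± 0.37 and 3.50 ± 0.39 on the log2 scale. The probes lie on chromosome 18 between 15536006 and 15536701 on mm8, minus strand.

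**Figure D2:**
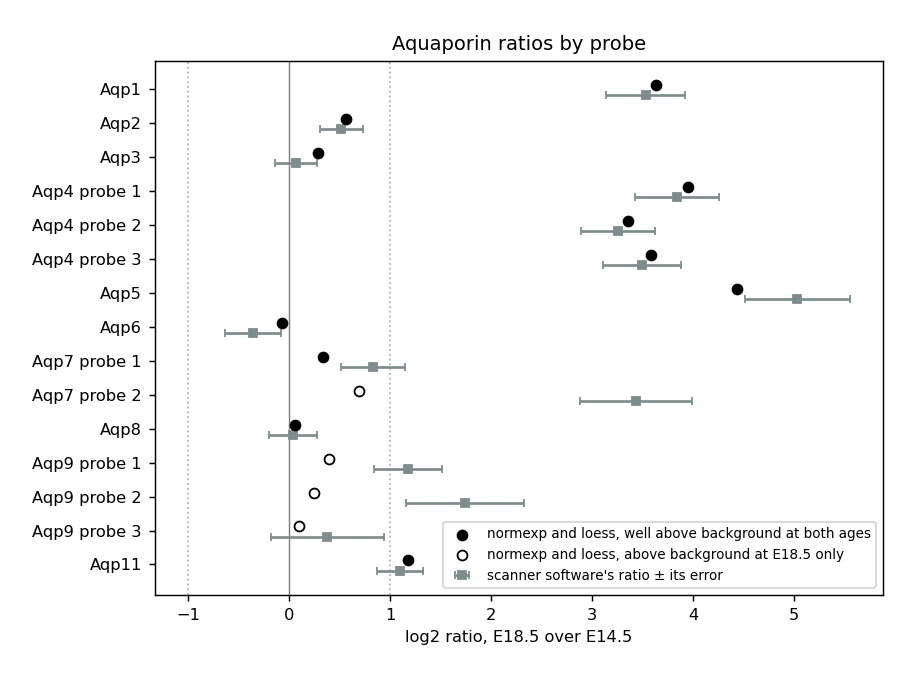
Log2 ratio of E18.5 over E14.5 for each aquaporin probe after normexp and loess (circles, open where only E18.5 was well above background) and by the scanner software (squares, with its error), with dotted lines at 2-fold. Aqp5, Aqp4 and Aqp1 lie beyond 3 by both, and for the second Aqp7 probe the 2 values are far apart, at 0.69 and 3.43.

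Aqp11, an aquaporin of the endoplasmic reticulum whose loss causes kidney cysts in mice, lay just past the 2-fold line. Its intensity was 1178 at E18.5 and 519 at E14.5. The log2 ratio was 1.18 (2.27-fold), and 1.10 ± 0.23 by the scanner software, so the distance to 2-fold was smaller than that error. The probe lies on chromosome 7 from 97601671 to 97601730 on mm8, minus strand. It is shown as the probe of the member nearest the threshold on the higher side.
Aqp11 probe: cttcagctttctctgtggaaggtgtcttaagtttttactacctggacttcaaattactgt

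Aqp2, the vasopressin-regulated channel of the kidney collecting duct, was the highest of the water-selective members that did not reach 2-fold. Its intensity was 471 at E18.5 and 317 at E14.5, with a log2 ratio of 0.57 (1.48-fold) and 0.52 ± 0.21 by the scanner software. Its 60-base probe spans 977 bases of chromosome 15 on mm8, from 99410181 to 99411157, and therefore skips a stretch of the genome between its ends. Aqp8, a channel of liver, pancreas and colon that also passes hydrogen peroxide, had an intensity of 143 at E18.5 and 138 at E14.5, with a log2 ratio of 0.06. The kidney vesicle channel Aqp6 had 119 at E18.5 and 125 at E14.5, with a log2 ratio of −0.07, the only one of the 10 below 0, though only just so (−0.01) with median centring in place of loess. The scanner software's ratios were 0.04 ± 0.24 for Aqp8 and −0.35 ± 0.28 for Aqp6. Both genes were dim: the lowest intensity of any probe well above background was 63.2 at E18.5 and 83.4 at E14.5.

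The aquaglyceroporins did not reach 2-fold in the main values. Aqp3, known from basal cells of the large airways, had an intensity of 834 at E18.5 and 684 at E14.5, with a log2 ratio of 0.29 (1.22-fold) and 0.07 ± 0.20 by the scanner software. Among 7 basal cell genes, 2 were higher by at least 2-fold, 2 were lower and 3 did not reach it, where 17.3% of all genes were higher and 10.1% lower. Krt15 (2.40) and Dapl1 (−2.83) lay farthest from the basal median of −0.09. The summed intensity of the basal list was 85843 at E18.5 and 21989.6 at E14.5, most of it from Krt15.

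Aqp7 lets glycerol out of adipocytes and is read by a pair of overlapping probes on chromosome 4. The first had an intensity of 123 at E18.5 and 97.5 at E14.5, a log2 ratio of 0.33 (1.26-fold). The second had 125 at E18.5 and was not well above background at E14.5 (77.5), which bounds the difference at at least 1.50-fold higher. For it the scanner software gave 10.8-fold, from a processed signal of 83.3 at E18.5 over 7.73 at E14.5, and a log2 ratio of 0.83 ± 0.31 for the first probe. The probes lie at 41222881 to 41222940 and at 41222859 to 41222918 on mm8, minus strand, and share 38 positions. They are shown because they read nearly the same stretch: capitals mark the 1 mismatch in it, G40A counted from the 5′ end of the first probe.
Aqp7 probe 1: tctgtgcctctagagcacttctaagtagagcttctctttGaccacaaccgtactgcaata
Aqp7 probe 2: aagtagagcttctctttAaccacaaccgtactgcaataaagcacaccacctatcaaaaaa
Both Aqp7 probes were near the floor at both ages. Among adipocyte markers, Adipoq, Lep and Cfd were not well above background at either age. Of the 5 that gave a value, 2 were at least 2-fold higher (against 17.3% of all genes), Fabp4 at 3.72 (other probes 2.42 and 3.39) and Pparg at 1.30. Endothelium and other cells also express these genes. These 5 summed to an intensity of 9446.7 at E18.5 and 2348 at E14.5, and the part of adipocytes in the Aqp7 values was not tested.

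Aqp9, which takes glycerol into hepatocytes and is also made by leukocytes, was flagged well above background only at E18.5, on all 3 of its probes. Before background correction the brightest probe read 138 at E18.5 and 112 at E14.5, the second 115 and 103, and the third 103 and 105. Negative controls had a mean net signal of 23.84 at E18.5 and 45.95 at E14.5, and their part in the flags was not tested. The brightest had an intensity of 125 at E18.5 and 95.4 at E14.5, which gave a bound of 1.31-fold. The other 2 had 98.7 and 90.4 at E18.5, against 83.0 and 84.4 at E14.5, with bounds of 1.18-fold and 1.07-fold. For the brightest and the third probe the bound is the plain ratio of dim signals, so it carries their noise and is not a firm lower limit. The second probe's bound also rests on a dim E18.5 signal (98.7) and is not a firm limit either. By the scanner software the third probe's log2 ratio was 0.38 ± 0.56. The call depended on the values used. The scanner software's ratio for the brightest probe was 2.26-fold, a log2 ratio of 1.17 ± 0.34, so the distance to 2-fold was smaller than that error. With the authors' value table that probe's log2 ratio was 1.07, but its E14.5 entry there is the floor of 15. In the leukocyte list, 9 of 14 genes were higher by at least 2-fold and 0 lower, against 17.3% and 10.1% of all genes. Its median was 1.87, with summed intensities of 29502 at E18.5 and 7449.6 at E14.5. The calprotectin genes S100a8 (4.04) and S100a9 (3.21) had the largest ratios of that list. The part of leukocytes in the Aqp9 signal was not tested.

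The other family members on the array were dim. Aqp12, an intracellular channel of pancreatic acinar cells, was flagged well above background at E18.5 only, with a bound of 1.14-fold. Before background correction its probe read 107 at E18.5 and 103 at E14.5, so the bound is not a firm lower limit. Mip, the lens aquaporin, was not well above background at either age.

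**Figure D3:**
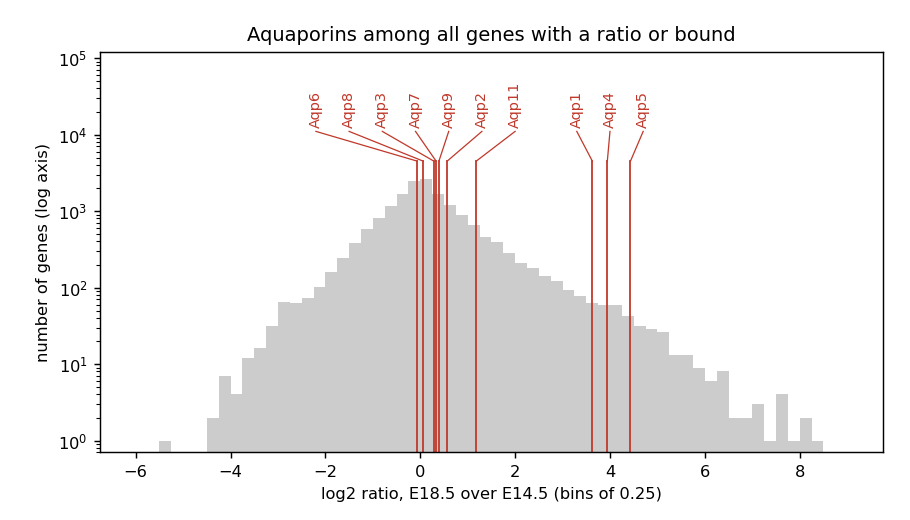
Number of genes (log axis) by log2 ratio of E18.5 over E14.5 in bins of 0.25 for all 17247 genes, with the 10 aquaporins as red lines (Aqp9 at its bound). Aqp1, Aqp4 and Aqp5 lie in the upper tail, and the others near the centre or, for Aqp11, on its right flank.

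The aquaporins with the largest and smallest ratios of the family are neighbours in the genome. Aqp2, Aqp5 and Aqp6 follow one another on chromosome 15 with no other protein-coding RefSeq gene between them, and their probes lie within 22.9 kb on mm8. Aqp5 in the middle was 21.6-fold higher at E18.5, while Aqp2 on one side and Aqp6 on the other were at log2 ratios of 0.57 and −0.07. Of the genes next in order, Faim2, an inhibitor of Fas-mediated apoptosis, was at 0.30 and Bcdin3d at 0.46 on the Aqp2 side. On the Aqp6 side Racgap1, a cytokinesis gene, was at −2.16 (4.48-fold lower, another probe −1.36) and Asic1, an acid-sensing ion channel, at −0.18. On chromosome 4, Aqp7 and Aqp3 are also adjacent, with log2 ratios of 0.33 and 0.29. Their neighbours Chmp5, Nfx1, Nol6 and Ube2r2 lay between −0.90 and 0.61 by the probe used, but the probes of Nfx1 ran between −0.90 and 0.48 and another probe of Nol6 was at −1.19.

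**Figure D4:**
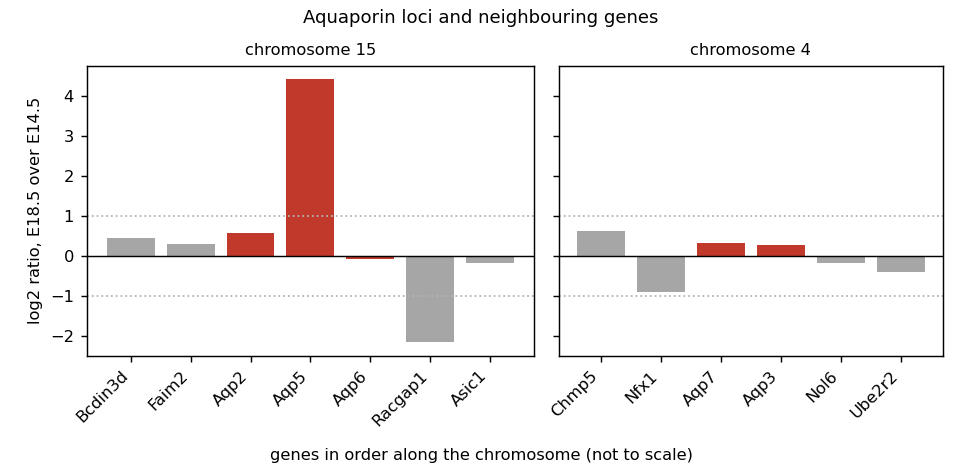
Log2 ratio of E18.5 over E14.5 for the aquaporins of chromosomes 15 and 4 (red) and the 2 protein-coding genes on either side (grey), in gene order and not to scale. On chromosome 15 the tall bar of Aqp5 (4.43) stands between the short bars of Aqp2 and Aqp6.

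RefSeq promoter windows on GRCm38.p6, from 250 bases before to 50 after a gene's start, were found for 9 of the 10 members, in 11 windows. That of Aqp5 was 79.7% G and C, above 98.8% of the 32851 windows in the table, and held 46 CG dinucleotides, against a median of 7. Those of its neighbours Aqp2 and Aqp6 were 56.0% and 58.7% G and C, with 8 and 4 CG dinucleotides, and that of Aqp1 was 62.7% with 8. These windows are shown to set the gene with the largest difference beside its neighbours and beside the next member with a window, Aqp1. They were searched on both strands for the GC box GGGCGG, the TATA box TATAAA, the Nkx2-1 core CAAGTG and the glucocorticoid receptor motif AGAACA, and capitals mark each match. The windows span chr15:99590778-99591077 for Aqp5, chr15:99578806-99579105 for Aqp2, chr15:99600950-99601249 for Aqp6 and chr6:55336049-55336348 for Aqp1, all on the plus strand.
Aqp5 promoter: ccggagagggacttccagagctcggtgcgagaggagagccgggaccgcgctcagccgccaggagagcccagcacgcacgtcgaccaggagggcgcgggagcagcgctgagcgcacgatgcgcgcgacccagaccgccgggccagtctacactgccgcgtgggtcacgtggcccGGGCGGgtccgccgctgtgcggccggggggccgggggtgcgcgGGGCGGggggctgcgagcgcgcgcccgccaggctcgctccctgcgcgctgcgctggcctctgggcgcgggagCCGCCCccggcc
Aqp2 promoter: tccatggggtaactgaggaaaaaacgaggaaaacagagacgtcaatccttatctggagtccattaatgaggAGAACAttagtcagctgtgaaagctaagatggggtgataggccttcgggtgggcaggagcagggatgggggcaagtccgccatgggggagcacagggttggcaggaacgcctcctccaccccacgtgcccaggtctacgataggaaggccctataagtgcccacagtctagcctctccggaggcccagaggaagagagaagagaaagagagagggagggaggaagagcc
Aqp6 promoter: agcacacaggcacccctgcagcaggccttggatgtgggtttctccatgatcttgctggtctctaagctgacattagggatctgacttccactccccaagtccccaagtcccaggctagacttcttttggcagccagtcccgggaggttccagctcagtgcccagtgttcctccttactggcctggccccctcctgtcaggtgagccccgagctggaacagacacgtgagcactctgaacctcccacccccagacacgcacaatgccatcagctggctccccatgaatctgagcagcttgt
Aqp1 promoter: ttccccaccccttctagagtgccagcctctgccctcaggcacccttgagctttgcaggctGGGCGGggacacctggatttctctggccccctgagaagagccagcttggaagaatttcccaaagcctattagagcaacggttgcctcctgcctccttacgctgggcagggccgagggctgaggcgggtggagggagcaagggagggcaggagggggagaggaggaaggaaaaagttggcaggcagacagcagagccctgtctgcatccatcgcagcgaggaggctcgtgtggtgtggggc
The Aqp5 window held 3 GC boxes and the Aqp1 window 1, while those of Aqp2 and Aqp6 held 0. Aqp2 had 1 AGAACA match. Over all windows, 35.7% held a GC box, 13.6% the TATA letters, 13.6% the Nkx2-1 core and 19.0% AGAACA. Of the 11 aquaporin windows, 3 held a GC box, 1 the TATA letters, 2 the Nkx2-1 core and 4 AGAACA. Both windows with the Nkx2-1 core are those of Aqp7, which overlap, and 2 of the 4 AGAACA matches are 1 site that both of them hold. The Aqp3 window, with a ratio within 2-fold, also held a GC box, and it was the one with the TATA letters.

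Genes that drive salt and liquid across epithelium were set beside the water channels. Of these, 23 gave a value: 12 were higher at E18.5 by at least 2-fold, 2 were lower and 9 did not reach it. The shares over all genes were 17.3% higher and 10.1% lower. The median log2 ratio of the list was 1.12 (0.06 over all genes). The sodium channel subunit Scnn1a was at 4.15 (17.8-fold, another probe 1.04), the potassium channel Kcnq1 at 2.82 (7.06-fold), the chloride transporter Slc26a9 at 2.56 (5.90-fold) and the sodium pump subunit Atp1b1 at 2.35 (5.09-fold). The 2 lower genes, named after their values were seen, were the chloride channels Cftr (−1.97) and Clcn2 (−1.19, another probe −0.30).

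Lists of genes that serve aquaporins more directly were counted in the same way. The shares of all genes to set beside these counts were 17.3% for higher, 10.1% for lower and 72.6% for neither. Of 16 genes for proteins that anchor or move aquaporins, 4 were higher by at least 2-fold, 0 were lower and 12 did not reach it, and the median was 0.21. These 4 were the membrane linker Ezr (1.78), the dystrobrevin Dtna (1.64, other probes 0.60 to 1.28), the recycling motor Myo5b (1.36, other probes 0.57 and 1.39) and Prkar2b, a regulatory subunit of protein kinase A (1.06). Dystrophin (Dmd), named after its values were seen, was counted within 2-fold at 0.61, but its other probes were at 1.52 and 1.75. Among 13 genes of cell volume control, 2 were at least 2-fold higher, the osmotically gated channel Trpv4 (1.77) and the taurine transporter Slc6a6 (1.65, another probe 0.59), 0 were lower and the median was 0.04. Nfat5, the transcription factor of the hypertonic response, was at −0.86, with other probes between −0.14 and 0.65, and the volume-regulated channel subunit Lrrc8d at −0.80. Of 13 genes for glycerol and related solutes, 4 were higher by at least 2-fold (Slc14a1 among them as a bound, with another probe at 0.45) and 0 lower, with a median of 0.64. Gpd1, which links glycolysis to glycerol phosphate, was at 5.39 (42.0-fold) with another probe at 1.30. Dgat2 was at 2.27 with other probes at 1.10 and 1.85, the lipase Pnpla2 at 1.52 with another probe at 0.25, and Gpam at 0.82.

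The remaining marker lists place the material. Alveolar type II genes were higher in 9 of 11 and lower in 1, with a median of 3.96, led by Sftpd (8.33) and Lyz2 (6.38, another probe 4.32). The lower gene, named after its values were seen, was Etv5 (−2.78, another probe −2.05), which is also in the distal tip progenitor list. Club and secretory genes had a median of 6.81, led by Scgb1a1 (8.03) and Pon1 (8.02), and multiciliated genes a median of 3.77, led by Sntn (6.85) and Hydin (5.01). Distal tip progenitor genes were lower in 7 of 8, with a median of −2.08. Mycn (−5.40, another probe −2.18) and Hmga2 (−3.15, other probes −3.08 and −1.72) were farthest from 0. Smooth muscle and mesenchyme genes went both ways, 2 of 12 higher and 4 lower, with a median of 0.05 between Dpt (4.27) and Myh11 (−2.43). Their part in the aquaporin ratios was not tested.

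**Figure D5:**
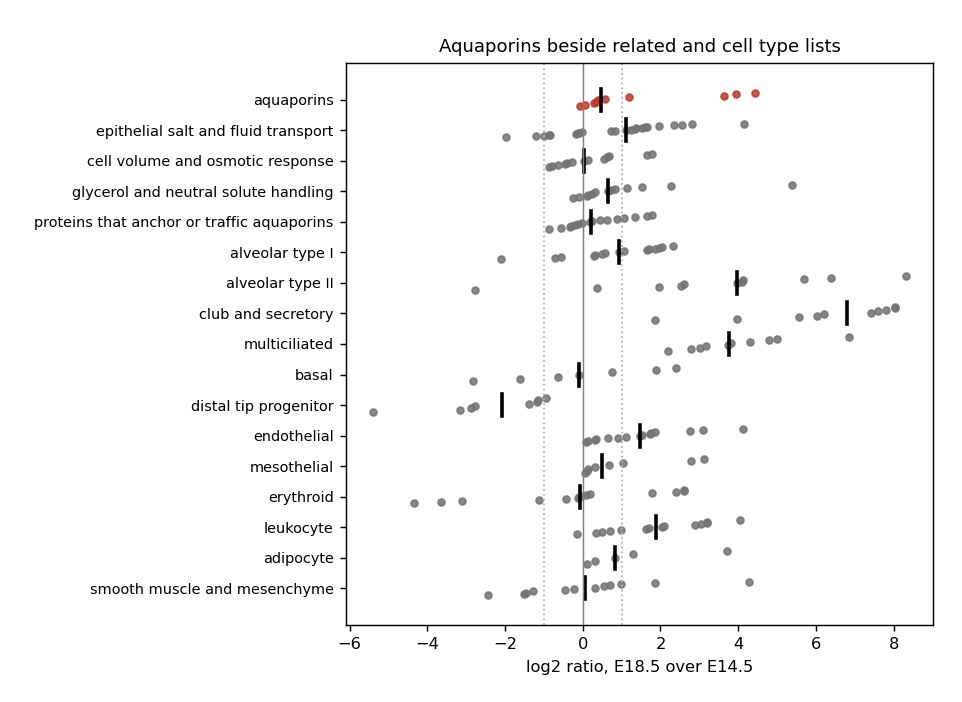
Log2 ratios of E18.5 over E14.5 for the aquaporins (red) and for the genes of each related or cell type list (grey), with black bars at the medians and dotted lines at 2-fold. Aqp1, Aqp4 and Aqp5 lie apart from the other members, above all alveolar type I genes (up to 2.32), but each lies below the club median (6.81). Aqp1 (3.63) and Aqp4 (3.94) also lie below the alveolar type II median (3.96), and Aqp1 below the multiciliated median (3.77).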

How the data were processed

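Gene expression was measured in 2 samples, laser-cut airway epithelium of E18.5 and E14.5, on 1 two-colour Agilent array. Both samples' scanner files matched in 116 of 116 columns and count as 1 array, red for E18.5 and green for E14.5, per the labels. They hold linear spot and background intensities, deposited by the authors without background subtraction. Agilent Feature Extraction (9.5.3.1, per the submitters' processing notes) also gave, per the file headers, processed intensities, a log10 ratio of red over green with an error, and flags. Probe coordinates are on mm8, per the file headers. The authors' value table holds linear intensities: each deposited column equalled the scanner software's processed intensity of that age's channel multiplied by 0.339, with a floor of 15, uncentred (medians 130.2 at E18.5 and 129 at E14.5). The constant's origin is not given.

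Mean intensities were background-corrected with normexp (offset 50) and then loess-normalized with a span of 0.3 and 4 iterations, using limma 3.58.1 (R 4.3.3). These steps were tested by giving known ratios to spots of this array, none of them among the dimmest. The offset pulls ratios of dim probes towards 0, and loess would hide a shift common to most genes. Controls and 160 outlier spots were left out. Python 3.11.15, numpy 2.4.6, pandas 2.3.3 and matplotlib 3.10.9 were used. Of 41170 probes, 33113 were named through RefSeq (GRCm38.p6, for names and gene order). Each gene was read from its brightest probe, by the mean of both channels' log2 intensities, among the probes that stood well above background at either age. A probe well above background at 1 age only gave a bound: the bright signal over the higher of the dim spot's own signal and the lowest signal well above background at that age. Where the dim spot's own signal was the higher, the bound is the plain ratio and carries that spot's noise. A bound under 1-fold gave no value, and bounds are open to dye bias.

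In place of depth, arrays have signal over background, with a median background-subtracted signal of 308 at E18.5 and 256 at E14.5. The single array limits the precision. No test was possible with 1 sample per age. The aquaporins, 5 related lists and 12 marker lists were chosen with earlier results of these data known. All aquaporins were named, with the 4 genes of each related list and the 2 of each marker list farthest from 0 among those well above background at both ages. Alternatives changed the background correction, normalization, probe choice, dim filter and source of values.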

Additional observations from a re-analysis of the deposited data

How the results depend on the processing

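Each of 6 alternatives kept Aqp1, Aqp4, Aqp5 and Aqp11 at least 2-fold higher at E18.5 and changed the sign of no member (0 of 10), but few could move them. Leaving out the filter on dim probes changed no member's value, the median over probes could not change the 7 genes with 1 probe, and the value table repeats the scanner software's processed signals. Over them the log2 ratio lay between 4.43 and 5.03 for Aqp5, 3.59 and 4.02 for Aqp4, 3.53 and 3.67 for Aqp1, and 1.10 and 1.24 for Aqp11. Aqp9 passed 2-fold with the scanner software's ratio (1.17 ± 0.34) and with the authors' value table (1.07), where its E14.5 entry is the floor of 15. The median over the aquaporins was 0.97 and 0.95 with those 2 settings, against 0.48 in the main values. The median of all genes was −0.05 with both, a shift of −0.11, and relative to it Aqp8 lay at 0.09 with the scanner software's ratio, against 0.00 in the main values. Genes of the related lists at least 2-fold lower numbered 2, but 5 with the scanner software's ratio, 5 with the value table and 1 with the median over a gene's probes, and the cause was not tested. Over all genes, the scanner software's ratio put 2639 at or past 2-fold lower, against 1739 in the main values. Of 167 single values and medians, 60 of them the aquaporins' own, 152 moved by less than the 0.33 SD between probes of a gene, as did 52 of the 60. No paired analysis was possible because each age had 1 sample. For the same reason no replicate could be left out. Signal over background limits Aqp6, Aqp7, Aqp8 and Aqp9, whose probes lay near background at both ages.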

Other observations

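A probe that carries another transcript's name shares a run of 54 bases with the brightest Aqp9 probe and was not counted as Aqp9. It was well above background at both ages, with an intensity of 134 at E18.5 and 102 at E14.5, and its log2 ratio was 0.39, while the Aqp9 probe gave only a bound (1.31-fold). By the scanner software its log2 ratio was 1.05.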
